A study of Mus musculus with 24 samples.

Results

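Tight junctions seal the space between neighbouring epithelial cells near their apical surface. Claudins form their strands, some sealing the path and others forming pores for ions and water, while occludin and tricellulin join the strands at contacts of a pair of cells and of several cells, and ZO-1 ties them to the actin skeleton. In the gut the make-up of the strands differs between crypt and villus. The genes followed here are 9 epithelial tight junction genes, chosen by name from the 39056 genes of a count table: the pore-forming claudins Cldn2 and Cldn15, the claudins Cldn3, Cldn4 and Cldn7, occludin (Ocln), tricellulin (Marveld2), ZO-1 (Tjp1) and the adhesion molecule JAM-A (F11r). All 9 were found in the table and all 9 passed the filter on low counts.

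Live cells of the ileum of C57BL/6 mice were sorted by CD45, the leukocyte surface marker, and RNA of both fractions was sequenced, from mice aged 9.0 to 10.3 weeks, with 3 libraries in each of 8 groups. All mice carried floxed Il4ra, the interleukin-4 receptor alpha chain. Hoil1+/+ and Hoil1-/- mice (a mutated Rbck1, the gene of the ubiquitin ligase subunit HOIL1) were studied without Cre (Il4ra f/f) or with Vil1cre (Il4ra ΔIEC), in which the villin promoter drives deletion in intestinal epithelial cells. The Hoil1-/- allele is described by the study as a partial deficiency, and the sorted cells came from an epithelial wash mixed with digested lamina propria, so that CD45- cells hold epithelium, endothelium and stroma together. Library totals were 6028275 to 68345191 counts in the 12 CD45- libraries and 14938629 to 76807504 counts in the 12 CD45+ libraries. The study removed 3 libraries as outliers; one of them, CD45- Hoil1-/- Il4ra f/f replicate 3, was left out of the tests on CD45- cells unless stated, which leaves 11 libraries. No label ties libraries to separate cultures or litters, and p-values measure the spread between these libraries.

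Rbck1 followed the labels in every CD45- library. In CPM, a gene's counts scaled to the same library total, the 6 Hoil1+/+ libraries stood at 85.5 to 122 and the 6 Hoil1-/- libraries 0 to 8.18 CPM, and Rbck1 fell by 4.23 on the log2 scale (SE 0.33, edgeR adjusted p = 0.00106). CPM values here are scaled by edgeR's TMM factors over the 12 CD45- libraries.

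In GRCm38 (GENCODE M21), Cldn3, Cldn4 and Cldn15 lie on chromosome 5, at chr5:134986214-134987472 (+), chr5:134945119-134946934 (-) and chr5:136966616-136975858 (+). Ocln, at chr13:100496507-100552718 (-), and Marveld2, at chr13:100595957-100616971 (-), lie near each other on chromosome 13. Cldn2 is at chrX:139800828-139811386 (+), Cldn7 at chr11:69964779-69967885 (+), Tjp1 at chr7:65296165-65527781 (-) and F11r at chr1:171437535-171464603 (+). No exon of a member overlapped an exon of another counted gene.

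The 250 bases upstream of the start of Cldn2 and Cldn4 (RefSeq, GRCm38.p6) are shown because, among the claudins, Cldn2 followed the epithelial content of a library least and Cldn4 most steeply. Capitals mark matches to 5 motifs searched on both strands. The letters searched were TTTATG for the intestinal factor CDX, then GTTAAT for the hepatocyte and gut factor HNF1, then GATAA for the zinc finger factors of the GATA family, then GGGCGG for the ubiquitous factor SP1 and finally CACCTG for the E-box bound by helix-loop-helix factors. Cldn2 is at chrX:139800558-139800807 on the plus strand and Cldn4 at chr5:134946935-134947184 on the minus strand.
Cldn2: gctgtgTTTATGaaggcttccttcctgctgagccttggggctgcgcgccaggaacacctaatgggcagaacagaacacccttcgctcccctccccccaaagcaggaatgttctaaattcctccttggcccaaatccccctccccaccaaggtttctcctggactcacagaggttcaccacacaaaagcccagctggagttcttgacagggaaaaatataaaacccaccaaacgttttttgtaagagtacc
Cldn4: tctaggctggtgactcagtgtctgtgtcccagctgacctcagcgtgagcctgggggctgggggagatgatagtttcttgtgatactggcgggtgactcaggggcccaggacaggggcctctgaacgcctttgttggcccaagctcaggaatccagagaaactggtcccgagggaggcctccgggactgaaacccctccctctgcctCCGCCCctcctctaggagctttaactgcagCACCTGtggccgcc
The Cldn2 window held the CDX letters, as did 10.8% of all 32851 windows. The Cldn4 window held the SP1 and E-box letters, found in 32.7% and 17.2% of windows. A match is a description of these letters only.

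Expressed per kilobase of exon, Cldn3 was the highest member (median 316 CPM per kb over the 12 CD45- libraries), followed by Cldn7 (220), Cldn15 (105), F11r (91.6), Cldn4 (73.0), Cldn2 (20.1), Tjp1 (20.1), Ocln (12.6) and Marveld2 (3.97). Cldn7 was above Cldn15 in 12 of 12 libraries and Ocln above Marveld2 in 11 of 12. The neighbours Cldn15 and F11r, F11r and Cldn4, and Cldn2 and Tjp1 kept this order in 7, 6 and 5 of 12 libraries, so these pairs were not separated. Epcam, the epithelial surface protein used as reference, had a median of 275 CPM per kb.

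The pore-forming claudins varied differently. Cldn2, a cation and water channel of crypts, was at 87.6, 48.3 and 76.8 CPM in Hoil1+/+ Il4ra f/f libraries, 92.3, 73.2 and 87.9 CPM in Hoil1+/+ Il4ra ΔIEC libraries, 52.4, 53.9 and 47.9 CPM in Hoil1-/- Il4ra f/f libraries and 60.5, 40.1 and 78.1 CPM in Hoil1-/- Il4ra ΔIEC libraries. Most Hoil1-/- libraries were low, but the groups overlapped, since Hoil1+/+ Il4ra f/f replicate 2 was lower than 4 of the 5 Hoil1-/- libraries tested. Cldn15, the sodium pore of the small intestine, was at 266, 110 and 145 CPM in Hoil1+/+ Il4ra f/f, 294, 241 and 108 CPM in Hoil1+/+ Il4ra ΔIEC, 347, 303 and 205 CPM in Hoil1-/- Il4ra f/f and 134, 53.7 and 307 CPM in Hoil1-/- Il4ra ΔIEC libraries. Its groups overlapped too.

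Cldn3, Cldn4 and Cldn7, claudins of the lateral epithelial membrane, ranged widely within groups. Cldn4 was at 202, 49.8 and 19.8 CPM in Hoil1+/+ Il4ra f/f, 321, 232 and 62.2 CPM in Hoil1+/+ Il4ra ΔIEC, 409, 398 and 63.1 CPM in Hoil1-/- Il4ra f/f and 26.8, 6.70 and 295 CPM in Hoil1-/- Il4ra ΔIEC libraries. Its highest library was 61.1 times its lowest. Cldn3 ranged from 79.4 to 656 CPM (median 398, 8.26-fold). Cldn7, which is abundant along the gut epithelium, was at 535, 156 and 278 CPM in Hoil1+/+ Il4ra f/f, 857, 958 and 247 CPM in Hoil1+/+ Il4ra ΔIEC, 820, 657 and 323 CPM in Hoil1-/- Il4ra f/f and 192, 90.2 and 539 CPM in Hoil1-/- Il4ra ΔIEC libraries. The lowest library was Hoil1-/- Il4ra ΔIEC replicate 2 for each of Cldn3, Cldn4 and Cldn7, and the groups overlapped.

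Ocln ranged from 17.03 to 99.9 CPM (median 53.0) and Marveld2 from 6.94 to 30.7 CPM. F11r, which is also made by endothelium and leukocytes, was the steadiest member, at 205 to 275 CPM. Tjp1, whose product is a scaffold of epithelial and endothelial junctions, was at 152, 240 and 183 CPM in Hoil1+/+ Il4ra f/f, 95.7, 128 and 204 CPM in Hoil1+/+ Il4ra ΔIEC, 164, 130 and 117 CPM in Hoil1-/- Il4ra f/f and 162, 225 and 114 CPM in Hoil1-/- Il4ra ΔIEC libraries. Its highest library, Hoil1+/+ Il4ra f/f replicate 2, was low in Cldn3, Cldn7 and Ocln, and its groups overlapped.

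**Figure D1:**
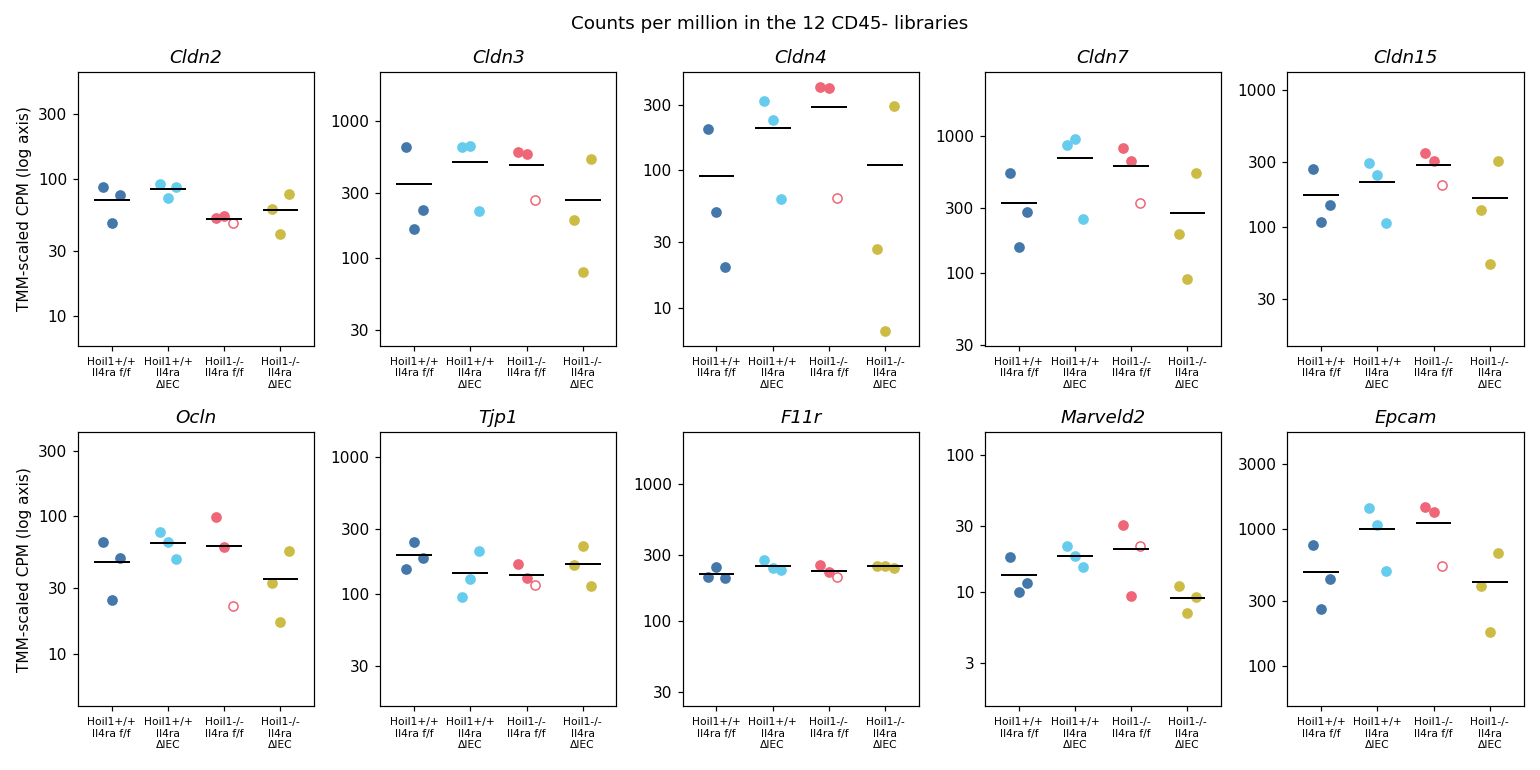
TMM-scaled CPM (log axis, the same 100-fold span in each panel) of the 9 members and Epcam in each CD45- library, by genotype; points are libraries, bars are means of 3, and the open point is the library left out of the tests. Cldn4 spans 61.1-fold and F11r 1.34-fold, and the Hoil1+/+ and Hoil1-/- libraries overlap in every panel.

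Much of this spread ran alongside the epithelial content of the libraries. Epcam itself differed 8.13-fold between libraries, from 179 to 1456 CPM. In the groups where replicates 1 and 2 shared an age, replicate 3 stood apart from them. Epcam was at 1456 and 1345 against 540 CPM in Hoil1-/- Il4ra f/f and 382 and 179 against 667 CPM in Hoil1-/- Il4ra ΔIEC libraries. In Hoil1+/+ Il4ra ΔIEC libraries it was at 1419 and 1075 against 494 CPM. The part of age was not tested. The summed level of 14 epithelial reference genes ran from 2008 to 20340 CPM, that of 12 endothelial genes from 1219 to 7569 CPM and that of 7 fibroblast genes from 487 to 9944 CPM, and no gene of these lists was at 0 in any library. Over the 12 libraries, log2 Epcam and the log2 endothelial sum had a Pearson r of -0.90 (Spearman rho -0.92), given as a description, since both come from one library and share its scaling. In bulk samples fewer cells of a type and less RNA per cell cannot be told apart.

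Cldn7 (r = 0.97, rho = 0.94), Cldn3 (r = 0.94, rho = 0.88), Cldn4 (r = 0.92, rho = 0.94), Cldn15 (r = 0.91, rho = 0.87) and Ocln (r = 0.88, rho = 0.90) followed log2 Epcam over these 12 libraries. Without the 2 libraries farthest from the Epcam median, r was 0.77 to 0.95 for these genes. Cldn4 had the steepest slope, 1.82 log2 units per log2 unit of Epcam, against 1.08 for Cldn7 and 0.97 for Cldn3. The villus enterocyte list (10 genes) ran from 252 to 39650 CPM; its part in the Cldn4 level was not tested. Marveld2 had r = 0.65 (0.36 without those libraries), Cldn2 r = 0.43 and F11r r = 0.11. Tjp1 ran the other way, with r = -0.72 to Epcam and r = 0.57 to the endothelial sum.

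**Figure D2:**
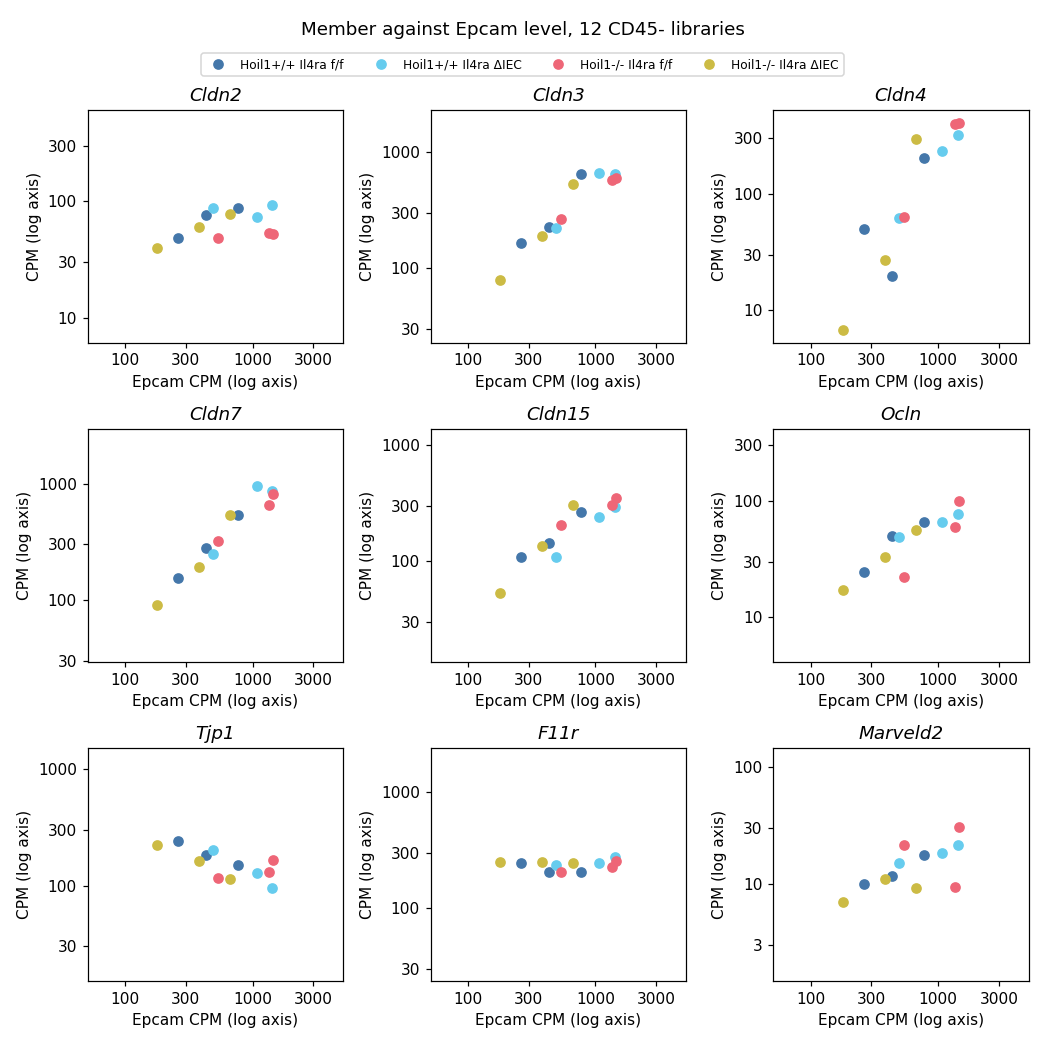
CPM of each member against Epcam CPM in the 12 CD45- libraries (log axes of equal 100-fold span; colours are genotypes). Cldn3, Cldn4, Cldn7, Cldn15 and Ocln climb with Epcam, F11r is level at 205 to 275 CPM and Tjp1 slopes down.

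Dividing by Epcam narrowed the members that followed it and widened the others. The SD of log2 values over the 12 libraries went from 1.09 to 0.28 for Cldn7, from 1.02 to 0.35 for Cldn3, from 0.82 to 0.40 for Cldn15, from 0.79 to 0.48 for Ocln and from 1.95 to 1.13 for Cldn4. It went from 0.41 to 0.89 for Cldn2, from 0.14 to 0.98 for F11r, from 0.42 to 1.31 for Tjp1 and from 0.64 to 0.75 for Marveld2. Cldn7 stood at 48.9 to 89.1 counts per 100 Epcam counts and Cldn3 at 40.9 to 84.3, whereas Tjp1 ran from 6.75 to 125.

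The first comparison asks whether loss of HOIL1 changed these genes in CD45- cells. Averaged over the Il4ra genotypes, 0 of 9 members passed the test (edgeR quasi-likelihood, adjusted p under 0.05), against 0.0182% of the 16453 genes tested (3 genes), and the Hoil1+/+ and Hoil1-/- libraries overlapped for all 9 (they did not for 0.164% of the genes tested). At an unadjusted p under 0.05 there were 868 genes (5.28%) and 0 members, and DESeq2 called 168 genes and 0 members. The median log2 fold change of the 9 was -0.05, beside -0.08 over all genes tested. Cldn2 had the smallest p, with a log2 fold change of -0.45 (SE 0.23, 95% interval -0.97 to 0.06, edgeR adjusted p = 0.93). Cldn4 had the widest interval, 0.63 (SE 0.86, -1.27 to 2.53), while that of F11r was 0.06 (SE 0.17, -0.31 to 0.44). The intervals of the claudins that followed Epcam allow changes of more than 1 log2 unit in at least one direction.

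Within Il4ra f/f mice 0 of 9 members passed (0.0365% of all genes did), and within Il4ra ΔIEC mice 0 of 9 (0.00608%). At an unadjusted p under 0.05 there were 2161 genes (13.1%) in Il4ra f/f and 1261 (7.66%) in Il4ra ΔIEC mice, with 0 members in each. DESeq2 called 613 and 138 genes there, and 0 members. Of the members' estimates, 7 of 9 were above 0 in Il4ra f/f mice, with a median of 0.74, and 7 of 9 below 0 in Il4ra ΔIEC mice, with a median of -0.83. Cldn2 was below 0 in both (-0.43 and -0.47) and F11r above 0 in both (0.11 and 0.02), and Tjp1 stood at -0.40 and 0.24. The 14 epithelial reference genes were above 0 in 14 of 14 and below 0 in 14 of 14, with medians of 1.24 and -1.15, and the 12 endothelial genes had medians of -1.25 and 0.73. Epcam had log2 fold changes of 1.50 (SE 0.60, edgeR adjusted p = 0.36) and -1.24 (SE 0.56, edgeR adjusted p = 0.63). The part of these marker levels in the members' estimates was not tested in this scaling.

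**Figure D3:**
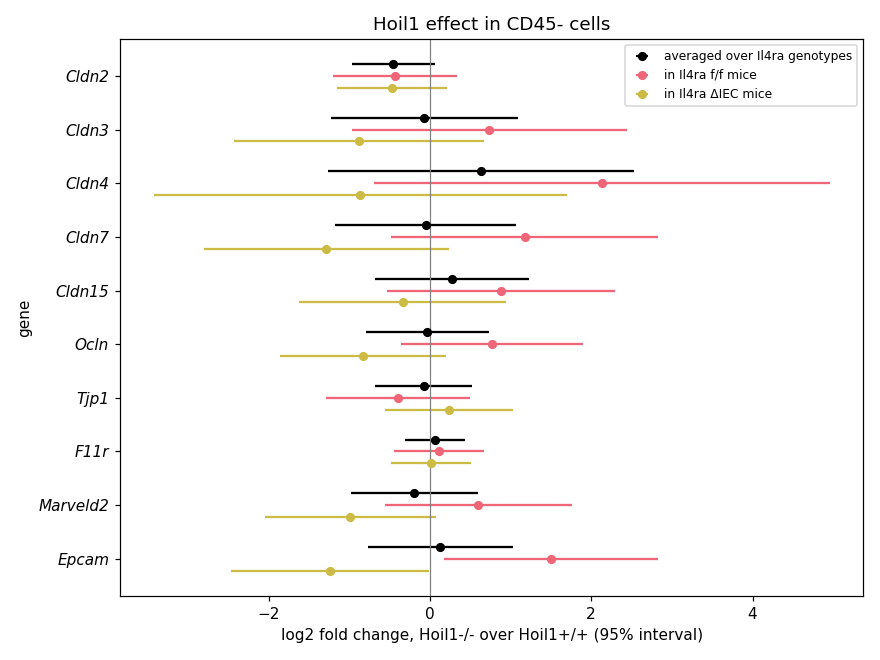
Log2 fold change of Hoil1-/- over Hoil1+/+ with 95% intervals for each member and Epcam (edgeR, 11 CD45- libraries), averaged and within each Il4ra genotype. All intervals of the 9 members cross 0; those of Cldn2 are -0.97 to 0.06, -1.21 to 0.34 and -1.16 to 0.21.

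The second comparison concerns epithelial deletion of Il4ra. Averaged over Hoil1 genotypes, 0 of 9 members passed and 0% of all genes did; 971 genes and 0 members had an unadjusted p under 0.05, and DESeq2 called 159 genes and 0 members. In Hoil1+/+ mice 0 of 9 passed (0% of all genes, with 724 genes at an unadjusted p under 0.05 and 17 called by DESeq2). In Hoil1-/- mice 0 of 9 passed (0.0425% of all genes). There 2904 genes (17.7%), 1 of them a member, had an unadjusted p under 0.05, and DESeq2 called 1182 genes and 0 members. Ocln had the smallest p in Hoil1-/- mice, with a log2 difference of -1.16 (SE 0.51, edgeR adjusted p = 0.28), where Epcam had -1.74 (SE 0.61, edgeR adjusted p = 0.22).

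For the interaction of both genotypes 0 of 9 members passed, as did 0% of all genes. At an unadjusted p under 0.05 there were 3409 genes, 3 of them members, and DESeq2 called 1466 genes and 0 members. The 3 were Cldn7 (log2 interaction -2.46, SE 1.02, edgeR adjusted p = 0.21), Ocln (-1.59, SE 0.69, edgeR adjusted p = 0.23) and Marveld2 (-1.59, SE 0.71, edgeR adjusted p = 0.24). Epcam stood at -2.74 (SE 0.82, edgeR adjusted p = 0.14) and the 14 epithelial genes had a median of -2.49.

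Set relative to Epcam, 0 of 9 members passed for the averaged Hoil1 and 0 of 9 for the averaged Il4ra effect, with 0% of all genes in each (618 and 911 genes had an unadjusted p under 0.05, none of them a member). Within single genotypes 0 members passed either. For Hoil1 in Il4ra f/f mice 2 had an unadjusted p under 0.05 (Cldn2, log2 -2.06, and Tjp1, -2.29), beside 33.6% of all genes. For Il4ra in Hoil1-/- mice 3 did (Cldn2 2.13, Tjp1 2.56 and F11r 2.24), beside 49.0%. In the remaining genotypes 0 did. An exact permutation test of the log2 ratio to Epcam, 2-sided over all 462 splits of 6 Hoil1+/+ and 5 Hoil1-/- libraries and run once per member without adjustment over the 9 tests, gave p values from 0.299 (Cldn7, difference -0.20) to 0.996 (Tjp1, difference -0.01). The smallest p this design allows is 0.00216. Cldn2 was at 11.4, 18.5 and 17.7 counts per 100 Epcam counts in Hoil1+/+ Il4ra f/f, 6.50, 6.80 and 17.8 in Hoil1+/+ Il4ra ΔIEC, 3.60, 4.01 and 8.86 in Hoil1-/- Il4ra f/f and 15.8, 22.4 and 11.7 in Hoil1-/- Il4ra ΔIEC libraries. The ratio was low in Hoil1-/- Il4ra f/f libraries and not in Hoil1-/- Il4ra ΔIEC libraries. Between these groups, on the TMM scale, Cldn2 differed by 0.20 (SE 0.35) and Epcam by -1.74. Relative to Epcam the median log2 difference of all genes there was 2.31, above that of Cldn2. With 5 Hoil1-/- libraries (2 Il4ra f/f and 3 Il4ra ΔIEC) pooled against 6 Hoil1+/+, the difference in log2 ratio was -0.41 (exact permutation p = 0.494). The edgeR estimate averaged over Il4ra genotypes was -0.69 (SE 0.46). Cldn15 was at 34.6, 42.0 and 33.3 per 100 Epcam counts in Hoil1+/+ Il4ra f/f libraries. Its Hoil1+/+ Il4ra ΔIEC libraries stood at 20.7, 22.4 and 21.9 (log2 difference relative to Epcam -0.76, SE 0.54, edgeR adjusted p = 0.50). Cldn15 was picked out after its values were seen, and the median log2 difference of all genes in this contrast was -1.03. In Hoil1-/- mice Cldn15 stood at 23.8, 22.5 and 38.0 (Il4ra f/f) and at 35.0, 30.0 and 46.0 (Il4ra ΔIEC). These overlapped only through the 38.0 of Il4ra f/f replicate 3, the library left out of the tests. Without it the log2 difference relative to Epcam was 0.68 (SE 0.61, edgeR adjusted p = 0.35), beside a median of 2.31 over all genes.

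**Figure D4:**
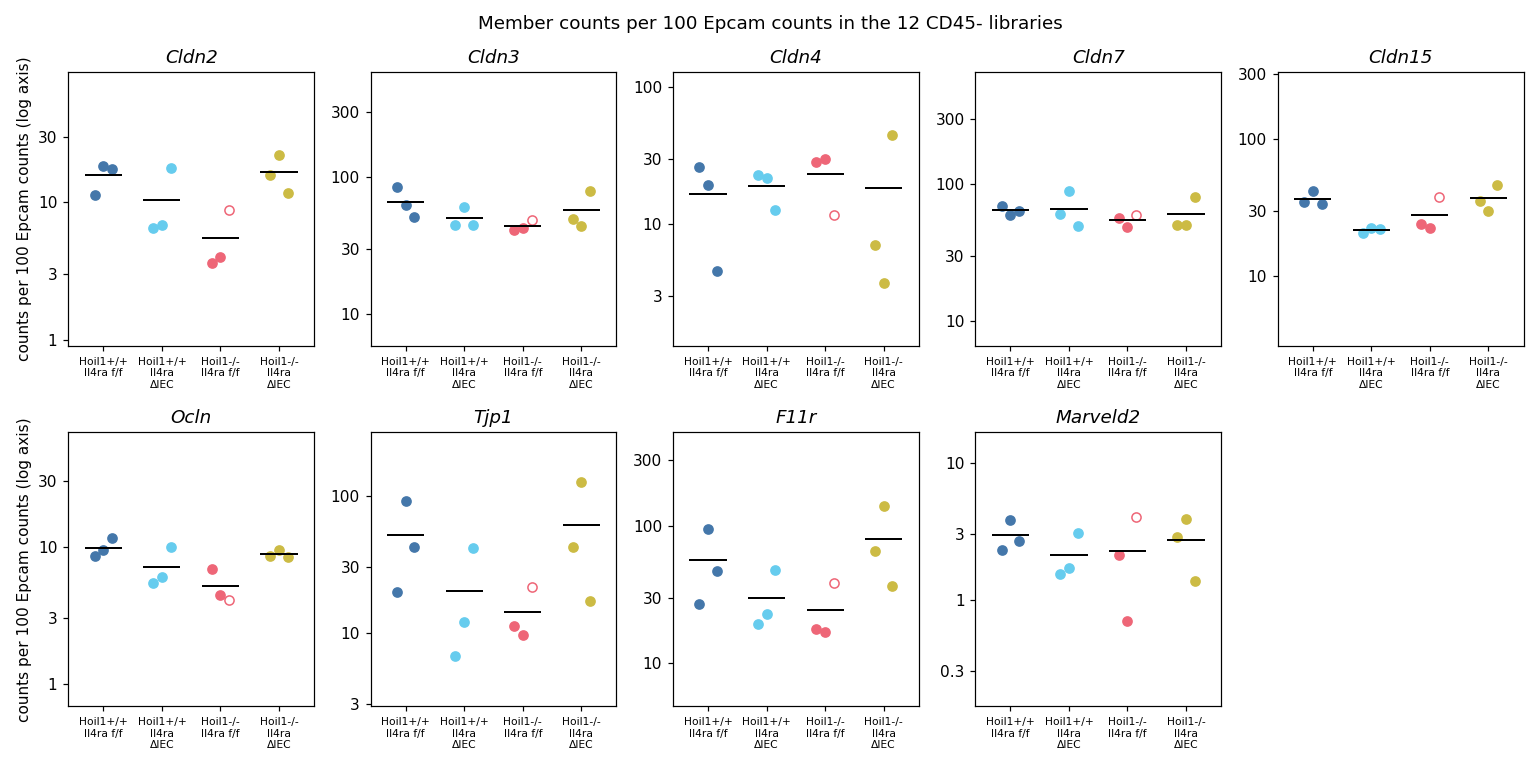
Counts of each member per 100 Epcam counts (log axis of equal 100-fold span) in each CD45- library, by genotype; bars are means of 3 and the open point is the library left out of the tests. Cldn7 stays between 48.9 and 89.1 in all 12 libraries, while Tjp1 runs from 6.75 to 125.

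On the Epcam scale the interaction, a contrast added after the data were seen, passed for 3 of 9 members, Cldn2 (log2 2.74, SE 0.94, edgeR adjusted p = 0.0394), F11r (3.15, SE 1.09, edgeR adjusted p = 0.0400) and Tjp1 (3.91, SE 1.37, edgeR adjusted p = 0.0404). Of all genes 43.8% passed, a larger share than among the members, with a median of 3.39 over all genes. On the TMM scale the interactions of the same genes were -0.04, -0.10 and 0.64, and Epcam, the denominator, had -2.74. With the geometric mean of 14 epithelial genes as scale, with Epcam as a covariate, or with all 12 libraries, 0 of 9 passed.

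The last comparison asks in which sorted fraction the members were found. Libraries of both fractions may come from the same mice, but no label says which, so the test treats them as separate. All 9 were higher in CD45- than in CD45+ cells (edgeR, 21 libraries), against 25.1% of the 18778 genes tested. The log2 differences ran from 1.21 for Marveld2 (SE 0.25, edgeR adjusted p = 0.000635) and 2.24 for F11r (SE 0.14, edgeR adjusted p = 3.64e-09) to 6.99 for Ocln (SE 0.40, edgeR adjusted p = 3.95e-09). On CPM scaled over all 24 libraries, F11r was at 175 to 234 in CD45- and 25.3 to 79.7 in CD45+ libraries. Cldn4 and Marveld2 overlapped between fractions, at 6.11 to 354 against 0 to 10.0 and at 6.34 to 26.6 against 0 to 10.3, and the other 7 members did not, against 7.62% of all genes tested that were higher in CD45- cells without overlap. Epcam was at 7.01 to 68.5 CPM in CD45+ libraries. Ptprc, the gene of CD45, was at 250 to 757 in CD45+ and 0 to 16.2 in CD45- libraries.

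**Figure D5:**
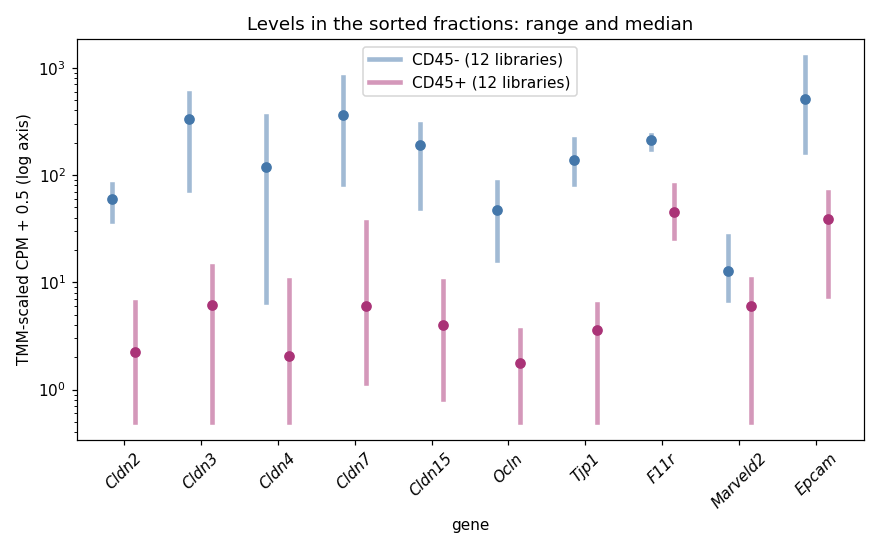
Lowest, median and highest CPM (plus 0.5, log axis; scaled over 24 libraries) of each member and Epcam in 12 CD45- and 12 CD45+ libraries. Cldn4 and Marveld2 overlap between fractions, and F11r has the highest CD45+ level of the members, 25.3 to 79.7 CPM.

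Of 46 other tight junction genes in the table, 34 were tested for genotype. On the TMM scale edgeR passed 0 of them in every genotype contrast. For the averaged Hoil1 effect 1 had an unadjusted p under 0.05 and DESeq2 called 0, beside 168 of all genes. DESeq2 called 1 up and 2 down for Hoil1 in Il4ra f/f mice (613 of all genes) and 1 down in Il4ra ΔIEC mice (138). For Il4ra it called 1 up when averaged (159), 5 up and 4 down in Hoil1-/- mice (1182) and 0 in Hoil1+/+ mice (17). For the interaction it called 2 up and 8 down (1466). These counts are of the 34 tested, and those in brackets are of 16453 genes. In each contrast with a call, the called share of the 34 was above that of all genes. For the interaction DESeq2 also called 0 up and 6 down of the 14 epithelial reference genes. The part of epithelial content in these calls was not tested. For the averaged Hoil1 effect in edgeR, the 5 with the smallest p were Ildr2 (log2 fold change -3.89, SE 1.29), Pard3 (-0.53, SE 0.25), Prkci (-0.45, SE 0.22), Jam3 (-0.81, SE 0.41) and Ildr1 (0.90, SE 0.48), with edgeR adjusted p of 0.84 to 0.95. The most abundant were the endothelial adhesion gene Esam (90.7 to 548 CPM), Ybx3 (203 to 356 CPM) and the endothelial claudin Cldn5 (35.1 to 579 CPM). Esam followed the endothelial list, which holds it. In the CD45 comparison 36 were tested, of which 30 were higher in CD45- cells and 2, Cldn1 and Cldn10, were higher in CD45+ cells. Of all 18778 genes tested there, 9321 passed in either direction, and 4719 (25.1% of those tested) were higher in CD45- cells. Cldn1 and Cldn10 were scarcely counted in CD45- libraries, each with a median of 0 CPM. Each was at 0 in 10 of these libraries, with highest values of 1.764 CPM for Cldn1 and 1.715 CPM for Cldn10.

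Over the 12 CD45- libraries and 15332 genes compared, the genes most like the mean log2 CPM of the 9 members were Tmem30b (r = 0.99), B4galnt1 (0.99), and Sel1l3, Elf3 and Spint1 (0.98, 0.98 and 0.97). Elf3 and Spint1 are among the epithelial reference genes. The log2 ratio of Cldn2 to Epcam was most like Cbfa2t3 (r = 0.97), Trim65 (0.95) and Mllt6 (0.95). These are descriptions over libraries that share the epithelial gradient.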

How the data were processed

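The deposited table held raw counts per gene, which the authors made from trimmed paired reads with STAR on mm10 and featureCounts, per the labels and the study's methods, with versions not given in the sources used here. Of 39056 gene IDs, 38872 matched GENCODE M21 by unversioned ID. Counts were tested with edgeR 4.0.16 in R 4.3.3 (TMM, filterByExpr with a minimum count of 10 and total of 15, quasi-likelihood test, Benjamini-Hochberg over all genes tested, threshold 0.05), 1 mean per genotype, in 11 CD45- or 21 libraries, as in the study's sample list. For values relative to Epcam, library sizes were set proportional to the Epcam count. DESeq2 1.42.0, RLE scaling, the likelihood ratio test, no filter, all libraries and leaving out each library were alternatives. The edgeR scripts were tested on simulated data with a capped spread between libraries and with no Il4ra effect or epithelial gradient. That test therefore does not show how the fits perform at the spread of these libraries. Python 3.11.15 and scipy 1.17.1 served for the rest. Named genes were the 9 members, Epcam and epithelial reference genes, Rbck1, other tight junction genes called or otherwise the 5 smallest p and 3 highest CPM, and the 5 and 3 most similar genes. Members and lists were chosen with earlier results of these data known.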

Additional observations from a re-analysis of the deposited data

Results flagged for a closer look

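The Hoil1 by Il4ra interaction differed from 0 on the Epcam scale for Cldn2 (log2 2.74), Tjp1 (3.91) and F11r (3.15), which means that the Hoil1 effect relative to Epcam was tested as different between Il4ra genotypes. Of all genes 43.8% passed the same test, Epcam itself had an interaction of -2.74 on the TMM scale, and the call was absent in 8 of 11 fits that left out 1 library.

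Among 36 groups of 5 or 6 libraries examined, 3 held a library far from the others, and chance marks about 1 in 20. In Hoil1+/+ mice Cldn2 was at 48.3 CPM in Il4ra f/f replicate 2, a gap of 0.642 of the group's log2 range. In Hoil1-/- mice the ratios of Cldn3 and Cldn7 to Epcam were highest in Il4ra ΔIEC replicate 3, at 79.9 and 80.9 counts per 100 Epcam counts, with gaps of 0.713 and 0.719 of the range.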

How the results depend on the processing

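In each of the Hoil1, Il4ra and interaction comparisons on the TMM scale, 0 of 9 members passed under every alternative run, and 9 of 9 passed in the CD45 comparison. The interaction relative to Epcam gave 3 members, but 0 with 14 epithelial genes as scale, 0 with Epcam as covariate, 0 with all 12 libraries and 0 to 4 when 1 library was left out. With Epcam as covariate its values turned for Cldn4 (1.78), Tjp1 (-0.95), F11r (-0.15) and Marveld2 (-0.45), and with 14 epithelial genes for Cldn7 (-0.038). Leaving out 1 library moved the interaction of Cldn7 from -0.11 to 0.42. It moved the averaged Hoil1 log2 fold change from -0.56 to 0.36 for Cldn3, -0.71 to 1.33 for Cldn4, -0.53 to 0.25 for Cldn7, -0.13 to 0.51 for Cldn15, -0.28 to 0.14 for Ocln, -0.21 to 0.11 for Tjp1 and -0.76 to 0.13 for Marveld2. The difference in log2 ratio to Epcam ran from -0.73 to -0.075 for Cldn2, -0.36 to -0.074 for Cldn3, -0.63 to -0.0077 for Marveld2, -0.35 to 0.54 for Cldn4, -0.33 to -0.10 for Cldn7, -0.037 to 0.23 for Cldn15, -0.28 to 0.012 for Ocln, -0.59 to 0.37 for Tjp1 and -0.35 to 0.42 for F11r. Without Hoil1-/- Il4ra ΔIEC replicate 3 the Cldn7 difference was -0.33 (exact permutation p = 0.0476, unadjusted). That library was flagged above for its high Cldn7 ratio. No other p was under 0.05 when each of 11 libraries was left out in turn for each of the 9 members. With all 12 libraries Cldn4 turned to -0.052 and with 14 epithelial genes as reference Tjp1 turned to 0.059. The cause was not tested. No paired analysis was run because the replicate numbers only name libraries and no label says which libraries share a mouse. In the Il4ra ΔIEC groups the ages were the same in both fractions. They were 9.6, 9.6 and 9.1 weeks in Hoil1-/- and 9.7, 9.7 and 9.0 weeks in Hoil1+/+ mice. A shared age does not name a mouse, and in the Il4ra f/f groups the ages did not all match.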
